A study of Sus scrofa with 9 samples.

Results

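The genes described here encode the matrix metalloproteinases (MMP), the ADAMTS proteases (a disintegrin and metalloproteinase with thrombospondin motifs), the ADAMTS-like proteins (ADAMTSL) and the tissue inhibitors of metalloproteinases (TIMP). They were chosen by symbol from a table of FPKM values, which count the read pairs on a gene relative to its length and to the depth of the library, as every row named MMP, ADAMTS, ADAMTSL or TIMP followed by a number. Of 34580 rows, 45 matched, namely 19 MMP, 19 ADAMTS, 5 ADAMTSL and 2 TIMP genes. A further 3 rows of these families, spelled MMP-13, TIMP-3 and TIMP-4 with a hyphen, did not match and are given beside the others without being counted. Total RNA of germs of the third deciduous molar of the lower jaw (Dm3) of miniature pig fetuses was sequenced on embryonic day 40 (E40), when the germ is at the cap stage, on day 50 (E50), at the early bell stage, and on day 60 (E60), at the late bell stage, as 3 libraries of each. The labels name no genetic change or treatment, and every library came from whole tooth germs, so that epithelium, mesenchyme and any adhering tissue were measured together. Values listed in a row of 3 below are those of libraries 1, 2 and 3 of a stage, in this order.

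MMPs are zinc-dependent endopeptidases that cleave collagens, laminins and other components of the extracellular matrix, and TIMPs bind their active site and block it. The ADAMTS proteases are secreted enzymes that cleave proteoglycans such as versican, remove the N-terminal propeptide of fibrillar procollagens or act on microfibril proteins, while the ADAMTSL proteins share their non-catalytic domains but have no protease activity. In a tooth germ, the basement membrane between the enamel organ and the dental papilla is remodelled and then broken down as odontoblasts and ameloblasts differentiate, and these gene families are among the enzymes known for such remodelling.

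The libraries fell into 2 sets that cut across stage E60. The E50 libraries and E60 library 1 held between 13840670 and 16167719 reads recovered from the steps of the FPKM values (the deep set, 4 libraries), and the E40 libraries and E60 libraries 2 and 3 held between 681672 and 1204273 (the shallow set, 5 libraries). Over the 19618 rows tested, Pearson's r of log2(FPKM + 0.1) lay between 0.959 and 0.983 for pairs within the deep set, between 0.743 and 0.838 within the shallow set, and between 0.301 and 0.609 for pairs between the sets. Stage and set changed together between E40 and E50, and their effects on that step cannot be told apart. Each comparison is therefore given over all libraries, without E60 library 1 where this matters, and within each set, as E60 libraries 2 and 3 against E40 (shallow) and E60 library 1 against E50 (deep). These last comparisons share no library, and in the deep set the lone E60 library is assumed to vary like the other groups. A single read was worth between 0.341 and 0.639 FPKM in the shallow libraries and between 0.036 and 0.0418 FPKM in the deep ones, as the median over the rows tested, so low values are less precise in the shallow set. The labels do not say whether the 3 libraries of a stage came from separate animals, and the p-values measure only the spread between libraries.

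Markers of the labelled tissue were present with 1 exception. Dental epithelium markers summed to at least 2340 FPKM in every library and to as much as 14500 FPKM in E60 library 1, although CDH1, the epithelial cadherin, was listed at 0 in all 9 libraries. Dental mesenchyme markers summed to between 91.3 and 199 FPKM. Of these, RUNX2 lay between 11.7 and 38.0 FPKM in the shallow and between 3.55 and 5.67 FPKM in the deep libraries. DLX1 lay between 30.8 and 55.6 against between 5.2 and 14.5 FPKM, and the others overlapped between the sets. Odontoblast and bone markers summed to no more than 30.2 FPKM before E60 and to 474, 200 and 243 FPKM at E60. Between the sets, endothelial markers (between 16.6 and 30.7 FPKM in the shallow and between 52.2 and 63.2 FPKM in the deep libraries), osteoclast markers (between 7.06 and 23.9 against between 50.3 and 70.7 FPKM) and red cell markers (between 94.5 and 388 against between 673 and 1030 FPKM) were higher in each deep library than in any shallow one. Skeletal muscle markers were highest at E40 (38.6, 45.2 and 59.7 FPKM, against at most 9.59 FPKM elsewhere), cartilage markers lay between 13.8 and 34.2 FPKM, and nerve and glia markers did not exceed 5.58 FPKM. Of the cartilage markers, COL10A1 lay between 8.02 and 21.5 FPKM in the shallow libraries and did not exceed 0.128 FPKM in the deep ones. The other cartilage markers overlapped between the sets. The part of these other cell types in the results below was not tested.

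Of the 45 genes, 44 were above 0 in at least 1 library and 39 passed the filter of at least 1 FPKM in at least 2 libraries. At E40 the highest mean levels were those of MMP14 (67.7 ± 14.1 FPKM, SD, n = 3), ADAMTS19 (63.9 ± 8.34), MMP2 (56.6 ± 14.6), MMP21 (21.3 ± 5.59) and MMP11 (15.6 ± 0.675). At E50 the order was MMP14 (101 ± 10.4 FPKM, SD, n = 3), MMP2 (85.2 ± 7.06), MMP16 (31.5 ± 4.33), MMP11 (28.3 ± 3.59) and TIMP1 (26.0 ± 3.42). At E60 MMP25 led (164 ± 157 FPKM, SD, n = 3), followed by MMP14 (93.1 ± 42), MMP2 (65.7 ± 30.9), MMP16 (25.0 ± 19.5) and TIMP1 (15.2 ± 17.8). MMP14 and MMP2 were among the first 3 at every stage. Neighbours in these orders differed by less than the sum of their SDs, except that MMP2 stood above the next gene at E40 and at E50, and the SDs at E60 were wide because library 1 differed from libraries 2 and 3.

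**Figure D1:**
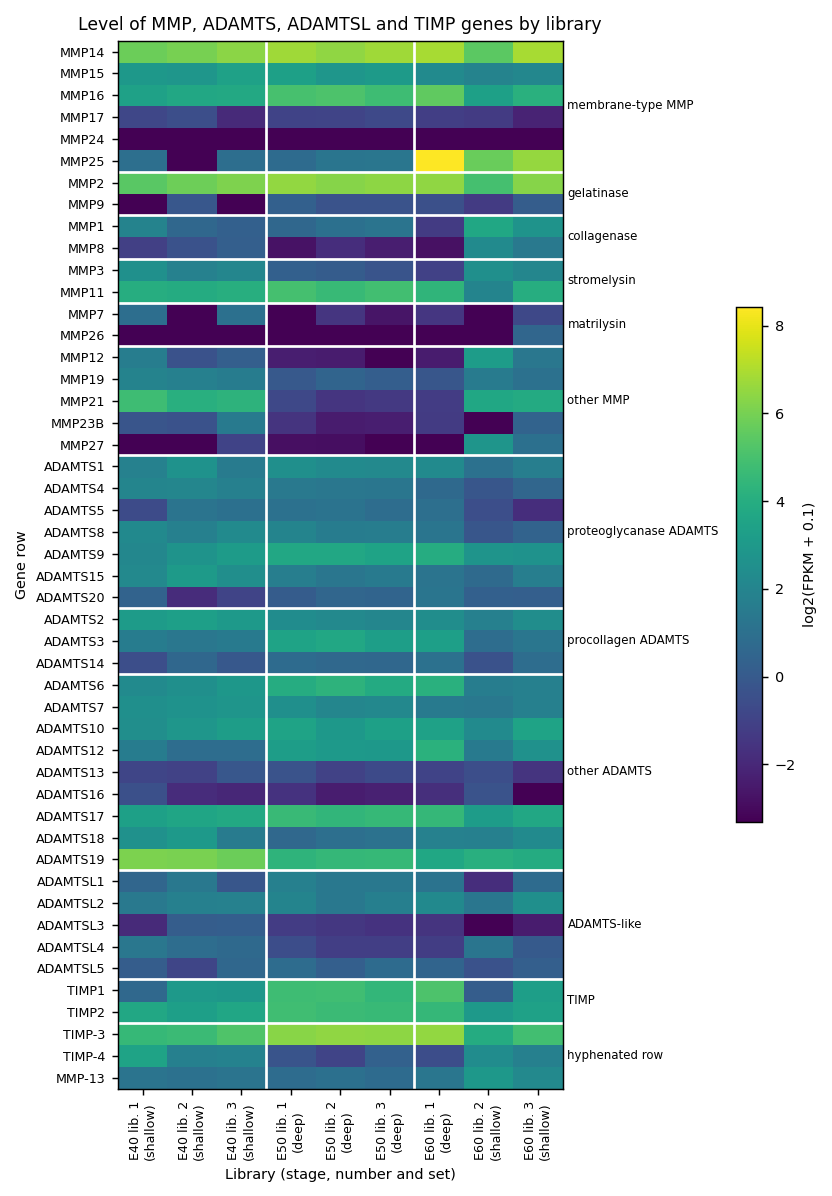
Level of the 45 genes and the 3 hyphenated rows in each of the 9 libraries, as log2(FPKM + 0.1), with rows grouped by the role of the protein and columns labelled by stage, library and set. MMP25 stands out at E60 in all 3 libraries (344, 53.1 and 95.9 FPKM), ADAMTS19 is highest at E40, and MMP21 is high in the shallow and low in the deep libraries.

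The comparisons of stages asked which of these genes changed as the germ passed from cap to bell. A gene was past the limits with an adjusted p under 0.05 (limma on log2(FPKM + 0.1), Benjamini-Hochberg over all rows tested) and a change of 1 or more, up or down, on the log2 scale. Passing the limits refers below to this fit of the unscaled values, unless another fit is named. Fold changes on this scale understate the change of genes with low values, and in whole tissue fewer cells of a type and less RNA per cell cannot be told apart. Comparing E50 with E40, 2 of the 39 genes were higher (ADAMTS3 and ADAMTS12) and 3 lower (ADAMTS18, ADAMTS19 and MMP21), while of all rows 38.6% passed, 16.8% as higher and 21.8% as lower. Between E40 and E60, MMP25 rose and ADAMTS19 fell, while 1.8% of all rows passed, 0.663% as higher and 1.14% as lower. In the shallow set, MMP25 was higher and ADAMTS19, ADAMTS8 and ADAMTS4 lower at E60, while 5.89% of all rows passed, 1.41% as higher and 4.48% as lower. MMP27 passed there too, but it reached 1 FPKM in E60 libraries 2 and 3 alone and so entered the tested rows only through the group in which it is high, and its call is not used here. No gene of these families passed by limma between E50 and E60 (0.0714% of all rows did), with 9 at an unadjusted p under 0.05 (30.2% of all rows) and 1, MMP25, past the limits by limma-voom on the recovered reads (0.734% of all rows). None passed by limma in the deep set (0.107% of all rows did), with 3 at an unadjusted p under 0.05 (3.77%) and 2, MMP25 and ADAMTS12, past the limits by limma-voom (2.35%).

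These counts moved with E60 library 1. Without it the numbers higher and lower were 6 and 9 between E40 and E50 (54.6% of all rows passed). They were 9 and 12 between E50 and E60 (59.1%), and 3 and 3 between E40 and E60 (6.06%), with MMP27 counted as higher in both. The comparison of E40 with E60 added MMP1 to the genes that rose and ADAMTS8 and ADAMTS4 to those that fell. The median log2 fold change of the 39 genes was 0.04 between E40 and E50, against 0.55 over all rows, and -0.32 against -0.64 between E50 and E60. It was -0.06 against -0.22 between E40 and E60, -0.37 against -0.46 within the shallow set and -0.04 against -0.07 within the deep set. When the libraries were scaled by their median ratio, the medians over all rows became -0.09 for the former step and 0.08 for the latter, and the split of the former moved to 2 higher and 9 lower (37.1% of all rows passed). A direction smaller than these shifts therefore depends on the scaling.

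MMP25, a membrane-type MMP held by a lipid anchor and known mainly from leukocytes, had the largest fitted change to E60 of the 39 genes. It was at 1.88, 0 and 1.78 FPKM at E40 and at 1.61, 2.26 and 2.32 FPKM at E50. At E60 it was at 344, 53.1 and 95.9 FPKM, from 18839, 249 and 573 reads. Each E60 library lay above every earlier one, in the deep and in the shallow set alike, and E60 library 1 was highest. Its log2 fold change between E40 and E60 was 7.39 ± 1.13 (SE; limma, Benjamini-Hochberg adjusted p = 0.0148), and it stayed past the limits when any single library was left out (adjusted p between 0.0152 and 0.0435). It was lost with a pseudocount of 0.01 (adjusted p = 0.0702) and in a fit of only the compared libraries (0.117). Within the shallow set it was 6.63 ± 1.15 (adjusted p = 0.0171), lost in the same alternatives (0.0872 and 0.0623), and the mean of E60 libraries 2 and 3 was 61.0-fold that of E40, which rests on 6, 0 and 8 reads.

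Within the deep set the log2 difference of MMP25 was 7.33 ± 1.46 (SE; limma, Benjamini-Hochberg adjusted p = 0.252), so that E60 library 1 stood 167-fold above the E50 mean without passing the limits. Over 16 alternatives its adjusted p lay between 1.45e-37, in a fit of only these 4 libraries with a single one at E60, and 0.811, with a pseudocount of 0.01, and 4 passed. Among these was the fit without E40 library 2, the library at 0 (adjusted p = 0.00149). Between E40 and E50 the log2 fold change was 1.57 ± 1.13 (adjusted p = 0.27). Over all libraries that between E50 and E60 was 5.82 ± 1.13 (adjusted p = 0.164, and between 0.0021 and 0.346 over 19 alternatives), and it passed without E60 library 1, at 5.06 (adjusted p = 0.00549), or without E40 library 2 (adjusted p = 0.0433). In each E60 library MMP25 ranked among the more abundant rows of the whole table, at places 179, 788 and 576, where it had been at places between 12202 and 19432 at E40 and E50.

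Markers of the cells in which MMP25 is best known had low sums in every library. The 7 neutrophil and macrophage markers in the table summed to between 0.929 and 5.47 FPKM over the 9 libraries and to 2.88, 0.929 and 2.19 FPKM at E60, and CSF3R and CD163, the receptor for granulocyte colony-stimulating factor and a macrophage scavenger receptor, were listed at 0 throughout. An exact 0 in this table may be a row that was not quantified, since CDH1 and BSG, which encodes the widely expressed MMP inducer basigin, were also listed at 0 in all 9 libraries, so the zeros say nothing of these cells. Some genes of the enamel and dentin matrix were also far higher in each E60 library than before. AMBN, which encodes the enamel matrix protein ameloblastin, did not exceed 6.48 FPKM before E60 and was at 10400, 2180 and 5370 FPKM at E60. ENAM (enamelin) was at 890, 212 and 327 FPKM and DSPP (dentin sialophosphoprotein) at 393, 174 and 194 FPKM at E60, against at most 1.55 and 2.62 FPKM, respectively, in any earlier library. The 3 genes shared with MMP25 the order of the E60 libraries, with library 1 highest and library 2 lowest. This order was not particular to them. MMP2, MMP16, MMP11, TIMP1 and TIMP2 had it too, whereas MMP14 and ADAMTS19 did not. The median-ratio factors of the E60 libraries also had this order (1.31, 0.512 and 0.85). The part of leukocytes or of cells that form enamel or dentin in the MMP25 values was not tested.

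**Figure D2:**
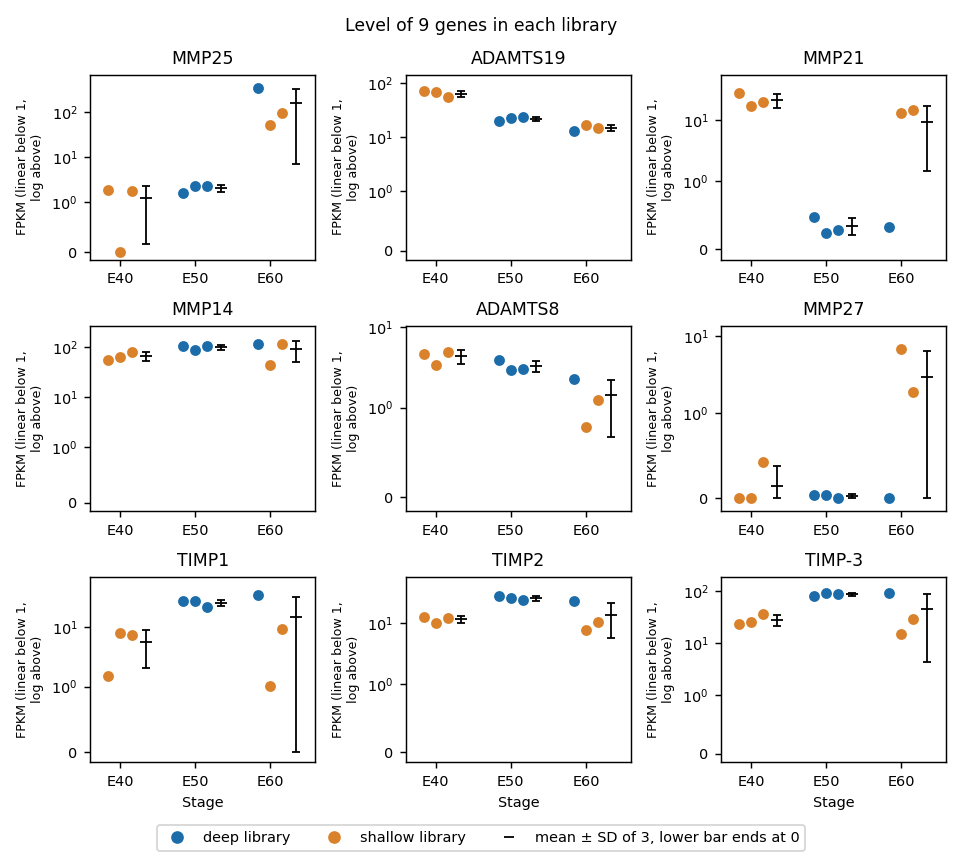
Level in FPKM of 9 genes in each library, with the deep libraries in blue, the shallow ones in orange and the mean ± SD of the 3 libraries of each stage in black, on an axis that is linear below 1 FPKM and logarithmic above. MMP25 is high in both sets at E60 and ADAMTS19 is low in both sets after E40, whereas MMP21, TIMP1, TIMP2 and TIMP-3 in E60 library 1 lie with the E50 libraries and in E60 libraries 2 and 3 nearer to the E40 libraries.

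The other membrane-type MMPs and the gelatinases had steadier levels. MMP14, which cleaves fibrillar collagens at the cell surface and activates the proenzyme of MMP2 with TIMP2 as a bridge, was at 54.8, 65.5 and 82.7 FPKM at E40, at 108, 89.2 and 106 FPKM at E50 and at 117, 44.6 and 118 FPKM at E60. MMP2, the gelatinase that cleaves denatured collagens and type IV collagen, was at 42.2, 56.2 and 71.3 FPKM at E40, at 91.8, 77.8 and 86.0 FPKM at E50 and at 89.3, 30.7 and 77.1 FPKM at E60. Both lay higher in each E50 library than in any E40 library, overlapped between E60 and either other stage, and were past the limits in no comparison. MMP16, which also activates the MMP2 proenzyme, was at 10.3, 13.3 and 13.6 FPKM at E40, at 31.7, 35.6 and 27 FPKM at E50 and at 47.0, 10.1 and 17.7 FPKM at E60, so that its highest values were those of the 4 deep libraries. MMP15 did not exceed 4.82 FPKM in any E60 library and was at least 7.04 FPKM in each earlier one. It did not pass the limits over the 9 libraries and passed between E50 and E60 without E60 library 1 (log2 fold change -1.06, limma with Benjamini-Hochberg adjusted p = 0.0125). MMP24 was listed at 0 in all 9 libraries, as were some widely expressed genes, so its level is not known. MMP17 did not exceed 0.615 FPKM, and MMP9, the gelatinase known from osteoclasts and neutrophils, was at 0, 0.826 and 0 FPKM at E40, at 1.1, 0.703 and 0.695 FPKM at E50 and at 0.619, 0.314 and 0.987 FPKM at E60.

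As shares of the summed FPKM of the 19 MMP genes, MMP14 and MMP2 together made up between 54.0 and 72.5% in the 6 libraries of E40 and E50, and 33.0, 37.4 and 53.1% at E60. MMP25 made up at most 1.05% before E60 and 54.97, 26.39 and 26.14% at E60. Without MMP25, the sum was 282, 148 and 271 FPKM at E60, against 178 to 229 FPKM at E40 and 240 to 279 FPKM at E50, so that E60 overlapped with both.

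**Figure D3:**
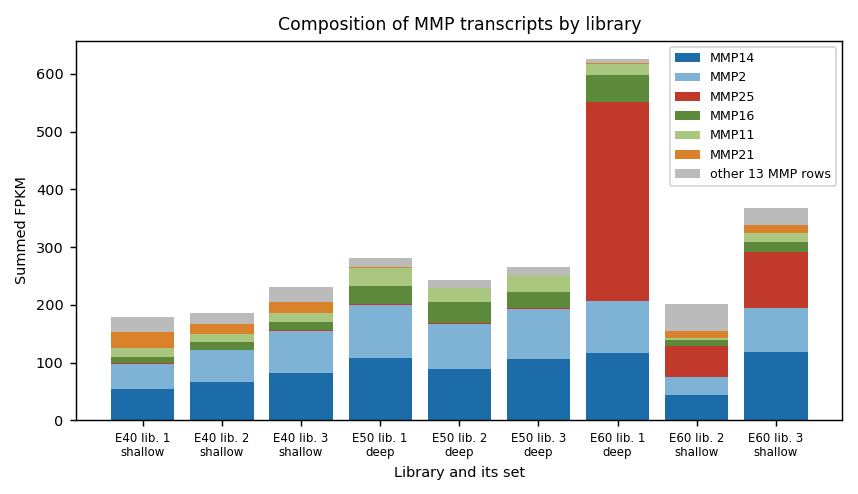
Summed FPKM of the 19 MMP genes in each library, stacked by gene with the lesser ones together, and with the stage, library and set below each bar. MMP14 and MMP2 are the largest parts at E40 and E50, MMP25 appears as a large part in the 3 E60 libraries (54.97, 26.39 and 26.14%), and MMP21 is visible only in the shallow libraries.

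The collagenases and their chromosomal neighbours were low and differed between the E60 libraries. MMP1, the interstitial collagenase, was at 3.73, 1.43 and 1.13 FPKM at E40, at 1.43, 1.92 and 2.16 FPKM at E50 and at 0.31, 12.7 and 6.54 FPKM at E60. MMP8, known as the neutrophil collagenase, was at 0.375, 0.67 and 1.06 FPKM at E40, at 0.0481, 0.19 and 0.0981 FPKM at E50 and at 0.0437, 4.85 and 2.6 FPKM at E60. In the shallow set both were higher in each E60 library than in any E40 library, whereas in the deep set E60 library 1 lay below each E50 library, with 10 reads of MMP1 and 2 of MMP8. Neither passed the limits over the 9 libraries, and MMP1 passed between E40 and E60 without E60 library 1 (log2 fold change 2.25, limma with Benjamini-Hochberg adjusted p = 0.0495), against an adjusted p of 0.0533 in the shallow set of the fit of all libraries. Without E60 library 1, MMP1 and MMP8 were also higher at E60 than at E50 (2.27 and 4.16, adjusted p = 0.00703 and 0.000884). MMP8 was then lower at E50 than at E40 (-1.88, adjusted p = 0.0231). In these fits E50 is deep and the other stages shallow. By limma-voom both genes were higher at E60 within the shallow set (2.36 and 2.29, adjusted p = 0.0157 and 0.0323). The row MMP-13, of another collagenase gene, was at 2.23, 1.99 and 2.21 FPKM at E40, at 1.66, 1.93 and 1.6 FPKM at E50 and at 2.31, 7.58 and 4.52 FPKM at E60, where each library lay above every earlier one. It did not pass the limits over the 9 libraries and passed between E50 and E60 without E60 library 1 (log2 fold change 1.71, limma with Benjamini-Hochberg adjusted p = 0.00329).

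In the RefSeq order of genes, MMP27, MMP8, MMP1, MMP3, MMP12 and MMP-13 follow each other with no protein-coding gene between them. Their summed level was 15.2, 8.24 and 10 FPKM at E40, 4.39, 5.15 and 4.58 FPKM at E50 and 3.13, 46.4 and 22.1 FPKM at E60, so that E60 libraries 2 and 3 were the highest and E60 library 1 the lowest of the 9. The E60 sums rest on 113, 126 and 79 reads. MMP27 was at 0, 0 and 0.418 FPKM at E40, at no more than 0.0378 FPKM at E50 and at 0, 6.82 and 1.89 FPKM at E60. Its signal came from E60 libraries 2 and 3 alone, with 17 and 6 reads, against 1 read in all at E40. Since only these libraries brought it past the filter, its difference is given as a description, and no fold is given because the fitted value (4.42 on the log2 scale within the shallow set) depends on the pseudocount and is no bound. MMP12, the macrophage elastase, and MMP3, a stromelysin that cleaves many matrix proteins, had their highest E60 values in libraries 2 and 3 too, at 8.78 and 2.43 FPKM and at 5.73 and 4.15 FPKM, against 0.0884 and 0.378 FPKM in library 1. The matrilysins MMP7 (at most 1.92 FPKM) and MMP26 (1 read in 1 library) were at the limit of detection.

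MMP21, a secreted MMP known for its role in left-right patterning of the embryo, was high in the shallow and low in the deep libraries. It was at 27.5, 16.7 and 19.5 FPKM at E40, at 0.48, 0.246 and 0.286 FPKM at E50 and at 0.327, 12.8 and 14.3 FPKM at E60. The 5 shallow libraries were at 12.8 FPKM or more and the 4 deep ones at 0.48 FPKM or less, from 30 or more and from 12 or fewer reads, although the deep libraries hold more reads in all. At E50 MMP21 was lower than at E40, with a log2 fold change of -5.61 ± 1.18 (SE; limma, Benjamini-Hochberg adjusted p = 0.0129), and with a term for the set of libraries the value was -0.62 (adjusted p = 0.903). The call was also lost without E40 library 1 (adjusted p = 0.0501), E50 library 2 (0.0528) or E50 library 3 (0.0541). MMP19, which cleaves basement membrane proteins, had the same arrangement at lower levels, between 1.99 and 3.74 FPKM in the shallow and between 0.788 and 1.29 FPKM in the deep libraries. It did not pass the limits over the 9 libraries, and without E60 library 1 it was lower at E50 than at E40 (log2 fold change -1.58, limma with Benjamini-Hochberg adjusted p = 0.00357) and higher at E60 than at E50 (1.11, adjusted p = 0.0295). Over the 9 libraries MMP19 was lower at E50 than at E40 with median-ratio scaling (-2.18, adjusted p = 0.0437), by limma-voom (-2.08, adjusted p = 0.037) and with a pseudocount of 1. MMP11, a stromelysin activated inside the cell by furin, was at 15.8, 14.9 and 16.3 FPKM at E40, at 31.1, 24.3 and 29.6 FPKM at E50 and at 20.3, 3.9 and 16 FPKM at E60. Its E50 libraries lay above all the others. It did not pass the limits over the 9 libraries. Without E60 library 1 it was lower at E60 than at E50 (log2 fold change -1.82, limma with Benjamini-Hochberg adjusted p = 0.013). MMP23B did not exceed 2.7 FPKM.

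Among the procollagen N-proteinases, ADAMTS3 was at 2.92, 2.45 and 2.72 FPKM at E40, at 11.1, 12.9 and 9.41 FPKM at E50 and at 9.71, 1.74 and 2.34 FPKM at E60. All 4 deep libraries lay above all 5 shallow ones. At E50 it was higher than at E40, with a log2 fold change of 2.0 ± 0.61 (SE; limma, Benjamini-Hochberg adjusted p = 0.0318), and with a term for the set of libraries the value was -0.21 (adjusted p = 0.957). Leaving out any of the 6 E40 and E50 libraries ended the call (adjusted p between 0.0644 and 0.109). ADAMTS2 was the highest of this group at E40 (8.86 ± 0.913 FPKM, SD, n = 3), with 4.58 ± 0.46 FPKM at E50 and 4.69 ± 1.11 FPKM at E60, and ADAMTS14 did not exceed 2.01 FPKM. Neither passed the limits over the 9 libraries by limma on the unscaled values. ADAMTS2 was lower at E50 than at E40 with median-ratio scaling (log2 fold change -1.58, Benjamini-Hochberg adjusted p = 0.02) and by limma-voom (-1.34, adjusted p = 0.0139).

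Of the 7 proteoglycanases of the ADAMTS family, which cleave versican and aggrecan, 0 passed the limits between E40 and E60 over the 9 libraries by limma, and 2, ADAMTS8 and ADAMTS4, were lower within the shallow set. By limma-voom both were also lower at E60 than at E40 over the 9 libraries (log2 fold change -1.48 and -1.67, Benjamini-Hochberg adjusted p = 0.0299 and 0.0229). Within the shallow set limma-voom gave -1.78 for ADAMTS8 (adjusted p = 0.0489) and -1.55 for ADAMTS4, which did not pass (adjusted p = 0.0758). ADAMTS8 was at 4.61, 3.34 and 4.9 FPKM at E40, at 3.88, 2.95 and 3.03 FPKM at E50 and at 2.25, 0.784 and 1.23 FPKM at E60. ADAMTS4 was at 3.98, 4.06 and 3.42 FPKM at E40, at 2.58, 2.44 and 2.34 FPKM at E50 and at 1.52, 0.772 and 1.36 FPKM at E60. For both genes each E60 library lay below every E40 and every E50 library. Within the shallow set they fell, by 2.0 ± 0.36 (SE, log2 scale; limma, Benjamini-Hochberg adjusted p = 0.0194) and by 1.79 ± 0.36 (adjusted p = 0.0279), a 4.26-fold and a 3.58-fold difference of the mean FPKM, from 4 and 8 reads of ADAMTS8 and from 4 and 9 reads of ADAMTS4 in E60 libraries 2 and 3. Both calls were lost with a replicate block and in a fit of only the compared libraries. ADAMTS4 also did not pass with median-ratio scaling (limma, Benjamini-Hochberg adjusted p = 0.0632). The call of ADAMTS8 was also lost without E50 library 2 (adjusted p = 0.0521) or 3 (0.0557). That of ADAMTS4 was lost without E40 library 1 (0.0505) or 2 (0.0672), E50 library 1 (0.0592), 2 (0.07) or 3 (0.074) or E60 library 2 (0.0583).

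Of the other proteoglycanases, none passed the limits over the 9 libraries by limma on the unscaled values. ADAMTS15 was lower at E50 than at E40 with median-ratio scaling (log2 fold change -1.73, Benjamini-Hochberg adjusted p = 0.0208) and by limma-voom (-1.52, adjusted p = 0.0208). It was also lower at E60 than at E40 by limma-voom (-1.48, adjusted p = 0.0333). ADAMTS15, the neighbour of ADAMTS8 with no protein-coding gene between them, was at 6.08 ± 2 FPKM (SD, n = 3) at E40, 2.72 ± 0.4 FPKM at E50 and 2.29 ± 0.768 FPKM at E60, and each E60 library lay below every E40 library. ADAMTS9 was the most abundant of the group at E50 (12.4 ± 1 FPKM, SD, n = 3), with 6.47 ± 2.25 FPKM at E40 and 15.3, 6.64 and 6.29 FPKM at E60. ADAMTS1 (between 1.99 and 6.17 FPKM) overlapped between all stages, and ADAMTS5 and ADAMTS20 did not exceed 2.3 FPKM.

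ADAMTS19, an ADAMTS protease without a well-defined substrate, was the most abundant of its family at E40 and lower at E60. It was at 70.0, 67.3 and 54.4 FPKM at E40, at 19.6, 22.5 and 23.6 FPKM at E50 and at 12.8, 17.0 and 14.9 FPKM at E60. The 3 stages did not overlap, and the E60 libraries of both sets lay close together. To E60 it fell by 2.09 ± 0.29 (SE, log2 scale; limma, Benjamini-Hochberg adjusted p = 0.0097), and by 1.99 ± 0.22 within the shallow set (adjusted p = 0.00329), a 4.01-fold difference of the mean FPKM. The call within the shallow set held in all 17 alternatives (adjusted p between 0.000338 and 0.028), and that from E40 to E60 in 16 of 19, being lost without E40 library 2 (adjusted p = 0.0554), with a replicate block (0.0661) and in a fit of only the compared libraries (0.201). The step to E50 had a log2 fold change of -1.54 ± 0.29 (adjusted p = 0.0124), lost without E40 library 1 (adjusted p = 0.0501), E50 library 2 (0.0528) or E50 library 3 (0.0541) and with a term for the set of libraries (-1.22, adjusted p = 0.371). Between E50 and E60 it was -0.56 ± 0.29 (adjusted p = 0.19), which did not pass and turned to 0.22 with median-ratio scaling and to 0.62 with that scaling without E60 library 1. Within the deep set the difference was -0.77 ± 0.28 (adjusted p = 1). Its share of the summed FPKM of the 19 ADAMTS genes was 49.8, 44.0 and 39.9% at E40, where ADAMTS17 came next. Skeletal muscle markers were likewise highest at E40, with sums of 38.6, 45.2 and 59.7 FPKM, and their part in the ADAMTS19 values was not tested.

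ADAMTS12, which cleaves cartilage oligomeric matrix protein, was at 2.92, 1.74 and 1.73 FPKM at E40, at 9.19, 8.1 and 7.53 FPKM at E50 and at 18, 2.65 and 5.97 FPKM at E60. Its deep libraries lay above its shallow ones, and E60 library 1 was the highest. Between E40 and E50 it rose by 1.95 ± 0.64 (SE, log2 scale; limma, Benjamini-Hochberg adjusted p = 0.0405), which became -0.2 with a term for the set of libraries (adjusted p = 0.971). The call was lost without any of the 6 E40 and E50 libraries or E60 library 3 (adjusted p between 0.0559 and 0.112). ADAMTS18 was at 6.0, 8.03 and 2.84 FPKM at E40, at 1.47, 1.86 and 2.02 FPKM at E50 and at 3.43, 3.4 and 4.8 FPKM at E60, so that the E50 libraries were the 3 lowest. Its log2 fold change between E40 and E50 was -1.49 ± 0.5 (adjusted p = 0.0411), lost without E40 library 1 or 2, any E50 library or E60 library 3 (adjusted p between 0.052 and 0.134). With a term for the set it was -1.26 (adjusted p = 0.827).

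The remaining ADAMTS genes did not pass the limits over the 9 libraries by limma on the unscaled values. ADAMTS7 was lower at E50 than at E40 with median-ratio scaling (log2 fold change -1.06, Benjamini-Hochberg adjusted p = 0.0449). By limma-voom it was lower at E60 than at E40 (-1.24, adjusted p = 0.0371). ADAMTS17 (between 21.5 and 24.9 FPKM in the deep and between 8.99 and 13.4 FPKM in the shallow libraries) and ADAMTS6 (between 14.2 and 19.3 against between 3.02 and 7.45 FPKM) were higher in each deep than in any shallow library. ADAMTS10, which acts on fibrillin microfibrils as ADAMTS6 and ADAMTS17 do, lay between 4.86 and 11.2 FPKM and overlapped between all stages. ADAMTS7 was at 6.25 ± 0.699 FPKM (SD, n = 3) at E40, 4.69 ± 0.804 FPKM at E50 and 2.91 ± 0.449 FPKM at E60, and each E60 library lay below every earlier one. ADAMTS13, which cleaves von Willebrand factor, and ADAMTS16 did not exceed 0.801 and 0.702 FPKM. Among the ADAMTS-like genes, ADAMTSL2, whose product binds fibrillin, had the highest mean at each stage and lay between 2.38 and 5.59 FPKM. ADAMTSL4, also a microfibril protein, lay between 0.892 and 2.39 FPKM in the shallow and between 0.334 and 0.581 FPKM in the deep libraries. ADAMTSL1, ADAMTSL3 and ADAMTSL5 did not exceed 3.37, 1.04 and 1.7 FPKM, and none of the 5 passed the limits over the 9 libraries by limma on the unscaled values. By limma-voom ADAMTSL4 and ADAMTSL3 were lower at E50 than at E40 (log2 fold change -2.54 and -1.71, Benjamini-Hochberg adjusted p = 0.0368 and 0.0451). Without E60 library 1, ADAMTSL4 was lower at E50 than at E40 (log2 fold change -1.9, limma with Benjamini-Hochberg adjusted p = 0.00957) and higher at E60 than at E50 (1.56, adjusted p = 0.035), and ADAMTSL1 was lower at E60 than at E50 (-2.03, adjusted p = 0.0472).

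The inhibitors were higher in the deep libraries. TIMP1 was at 1.49, 7.97 and 7.38 FPKM at E40, at 27.7, 28.2 and 22.1 FPKM at E50 and at 35.2, 1.01 and 9.52 FPKM at E60. TIMP2, which takes part in the activation of the MMP2 proenzyme, was at 12.9, 9.93 and 12.4 FPKM at E40, at 28.4, 25.5 and 23.7 FPKM at E50 and at 22.9, 7.77 and 10.4 FPKM at E60. TIMP-3, the row of the inhibitor that binds to the matrix, was at 23.1, 25.3 and 36.0 FPKM at E40, at 80.5, 89.6 and 87.3 FPKM at E50 and at 90.9, 14.9 and 28.9 FPKM at E60. In all 3 rows the 4 deep libraries lay above the 5 shallow ones, and E60 library 1 was nearer to the E50 libraries than to E60 libraries 2 and 3. TIMP-4 had the opposite arrangement, at 3.35 FPKM or more in the shallow libraries and at 1.15 FPKM or less in the deep ones, from between 3 and 9 reads in the former.

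The log2 fold changes of the inhibitors between E40 and E50 were 2.5 ± 1.12 (SE; limma, Benjamini-Hochberg adjusted p = 0.0996) for TIMP1 and 1.14 ± 0.42 (adjusted p = 0.0573) for TIMP2. Both passed without E60 library 1 (adjusted p = 0.031 and 0.00231) or 2 (0.0206 and 0.0203), within a range over 19 alternatives of 0.0079 to 0.947 for TIMP1 and of 0.000946 to 0.954 for TIMP2. With a term for the set of libraries both signs turned, to -0.93 and -0.2. Between E50 and E60 they were -1.84 ± 1.12 (adjusted p = 0.238) and -1.06 ± 0.42 (adjusted p = 0.164), and both passed without E60 library 1, at -2.99 (adjusted p = 0.0232) and -1.51 (adjusted p = 0.00103). Between E40 and E60 they were 0.66 ± 1.12 (adjusted p = 0.79) and 0.07 ± 0.42 (adjusted p = 0.95). Neither passed within a set. The values were -0.49 ± 0.94 (adjusted p = 0.765) and -0.37 ± 0.25 (adjusted p = 0.36) in the shallow set and 0.45 ± 1.19 and -0.17 ± 0.31 (both adjusted p = 1) in the deep set, so that a change of either inhibitor between stages was not detectable within a set of libraries.

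How far the differences between E40 and E50 resembled a difference between the sets was described with libraries of 1 stage. The difference of E60 library 1 from E60 libraries 2 and 3, both of the late bell stage, was set against the difference of E50 from E40, with no library in common. Over the 39 genes Pearson's r was 0.74 and Spearman's rho 0.84, and 33 of the 39 had the same sign in both. Over all 19618 rows r was 0.90 and 88.7% had the same sign. Genes are not independent replicates, and the points share libraries, depth and base composition, so these values are a description without a test. The 6 of opposite sign were ADAMTSL3, MMP7, MMP23B, ADAMTS8, ADAMTS2 and ADAMTS4. Chosen after their values were seen, 3 more stood off the line of equal differences, namely MMP1 and MMP27, which differed between the E60 libraries (-4.49 and -5.21 on the log2 scale) and hardly between E40 and E50 (-0.02 and -0.5), and ADAMTS19, which differed between E40 and E50 (-1.54) and little between the E60 libraries (-0.31).

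**Figure D4:**
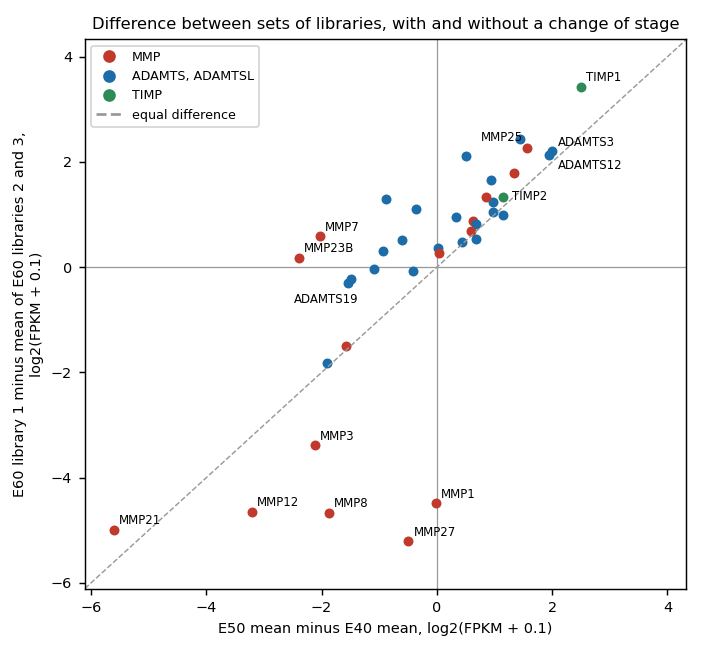
Difference between E50 and E40 (horizontal axis) and between E60 library 1 and the mean of E60 libraries 2 and 3 (vertical axis), both in log2(FPKM + 0.1), with 1 point for each of the 39 genes tested and a dashed line where both are equal. Of the 39 points, 33 have the same sign on both axes, with TIMP1 at the upper right and MMP21 at the lower left.

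The changes to E60 within each set were set side by side in the same way. Of the 39 genes, 10 were higher at E60 in both sets, 17 lower in both and 12 opposite, or 69.2% with the same sign, against 61.8% of all 19618 rows. Pearson's r over the 39 genes was 0.54 and Spearman's rho was 0.30, against 0.28 and 0.29 over all rows. MMP25 stood far from the other points (6.63 and 7.33), and r was not computed without it. MMP25 was the only one of the 39 with a log2 difference of at least 1 in the same direction in both sets. Of all 19618 rows, 342 were higher and 447 lower by at least 1 in both sets, so this count is no result about these families. In the shallow set 4 of the 39 genes, MMP27 included, were higher in each E60 library than in any E40 library (5.45% of all rows) and 12 were lower (30.3%), and in the deep set E60 library 1 lay above all E50 libraries for 13 (24.8% of all rows) and below them for 14 (31.6%). Of the genes lower in this sense in the shallow set, ADAMTS19, ADAMTS15, ADAMTS7, ADAMTS8, ADAMTS4, MMP19 and MMP15 were also lower in the deep set, and of the genes higher only MMP25 was. The share of all rows with such an arrangement in both sets was not counted. These lists are therefore a description and no result about the genes of these families.

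**Figure D5:**
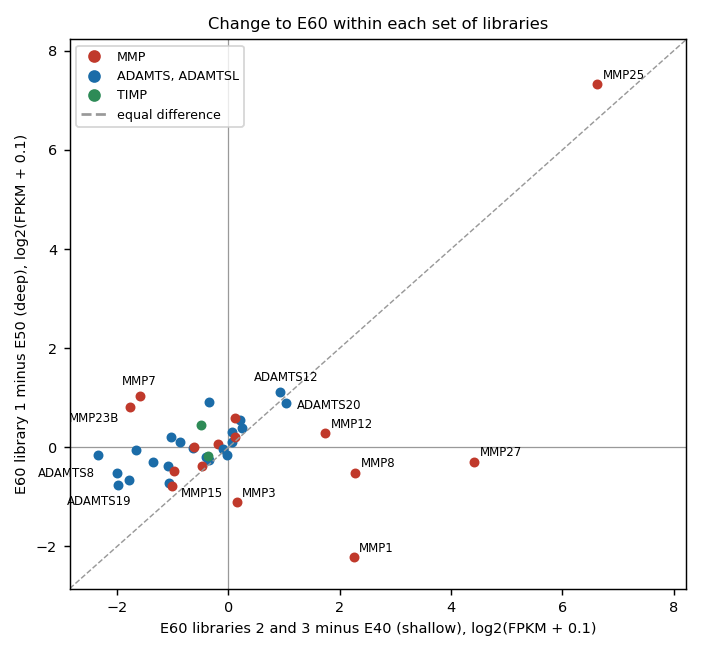
Change to E60 within the shallow set (E60 libraries 2 and 3 minus E40, horizontal axis) and within the deep set (E60 library 1 minus E50, vertical axis), both in log2(FPKM + 0.1), with 1 point for each of the 39 genes tested and a dashed line where both are equal. MMP25 stands apart at 6.63 and 7.33, ADAMTS19 is at -1.99 and -0.77, and MMP1 and MMP27 are higher in the shallow set and lower in the deep set.

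Of 54 other genes of pericellular proteolysis listed with their substrates, 48 were in the table and 44 were tested. At E50, 14 were higher and 3 lower than at E40 (16.8% and 21.8% of all rows were, with a median log2 fold change of 0.75 for the 44 against 0.55), and those with the smallest adjusted p were A2M (alpha-2-macroglobulin, a broad protease inhibitor), FBN2 (fibrillin 2), CTSK (cathepsin K), VCAN (versican), DCN (decorin) and PCOLCE2 (an enhancer of procollagen C-proteinase). Of these 17 calls 0 were left with a term for the set of libraries, and without single libraries 0 (E40 library 1, E50 library 2 or E50 library 3), 5 (E50 library 1), 6 (E40 library 2) or 10 (E40 library 3). VCAN, a substrate of the ADAMTS proteoglycanases, was at 41.9, 52.5 and 67.6 FPKM at E40, at 288, 366 and 321 FPKM at E50 and at 528, 102 and 149 FPKM at E60. Here too the deep libraries were the highest. To E60, A2M and PAPLN rose and ADAM33 fell. A2M was at 0, 0.195 and 0.155 FPKM at E40, at 2.34, 2.78 and 2.44 FPKM at E50 and at 24.2, 5.65 and 9.68 FPKM at E60, with a log2 fold change of 5.82 ± 0.68 (SE; limma, Benjamini-Hochberg adjusted p = 0.0047), and E40 held 0, 1 and 1 reads, so the fitted value is no bound. PAPLN, which encodes papilin, an ADAMTS-like matrix protein, was at 3.69, 4.94 and 6.35 FPKM at E40, at 3.97, 2.61 and 3.24 FPKM at E50 and at 51.6, 14.2 and 38.9 FPKM at E60 (log2 fold change 2.62 ± 0.52, adjusted p = 0.0404). Leaving out any E40 or E50 library or E60 library 3 ended the calls of PAPLN (adjusted p between 0.0807 and 0.142) and of ADAM33 (main value -2.72, adjusted p = 0.0443, and between 0.0897 and 0.141 without these), while A2M stayed past the limits without each library (between 0.00275 and 0.0231). In a fit of only the compared libraries 0 of the 44 passed by limma. Both A2M and PAPLN were higher in each E60 library than in any earlier one.

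In the shallow set, A2M, PAPLN and FBN2 were higher at E60 (log2 differences 5.26, 2.24 and 1.61, limma with Benjamini-Hochberg adjusted p = 0.00215, 0.0278 and 0.0175). ADAM33, a membrane-anchored protease of the ADAM family, and FAP, a serine protease of fibroblasts, were lower (-2.46 and -1.82, adjusted p = 0.0189 and 0.0476). They rest on 5 and 3 reads of ADAM33 and on 3 and 2 reads of FAP in E60 libraries 2 and 3, the last at or below the floor of 3 reads. The call of FAP held only without E60 library 2, that of PAPLN was lost without E40 library 1 or 2 or any E50 library, that of ADAM33 without E50 library 3 (adjusted p = 0.0548) and that of FBN2 without E40 library 2 (0.0548). FAP was at 0.842 and 0.44 FPKM in E60 libraries 2 and 3 and at 4.73 FPKM in E60 library 1, near its E50 values of 3.86, 4.48 and 5.12 FPKM. Between E50 and E60 and within the deep set none of the 44 passed the limits by limma, with 9 and 8 at an unadjusted p under 0.05 (30.2% and 3.77% of all rows), and 2 and 6 past the limits by limma-voom (0.734% and 2.35% of all rows).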

How the data were processed

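Libraries were made from rRNA-depleted total RNA with a directional kit and sequenced as paired ends. The submitters' processing notes name TopHat and the Sscrofa10.2 build, and the authors deposited 1 FPKM value for each gene in each library, with no scaling between libraries stated. The table holds symbols and no positions. Depth is not stated, but the deposited FPKM values of a row are multiples of what 1 read is worth, which gave back whole reads for 28961 of the 28963 rows above 0 (97.1% of 3532 simulated rows were exact). They cover counting error only, and 3 reads were taken as the floor.

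The filter kept rows that reach 1 FPKM in 2 or more libraries. These entered limma 3.58.1 (R 4.3.3) as log2(FPKM + 0.1), with the trend option of its variance prior, a coefficient per stage (or per stage and set) and Benjamini-Hochberg adjustment over all 19618 rows. A gene was past the limits at an adjusted p under 0.05 with a change of 1 or more on the log2 scale. When 200 simulated rows were changed by 2 on that scale, 84 of them and 2 unchanged rows passed from E40 to E50, 62 and 5 within the shallow set, and 0 and 0 within the deep set. The simulated libraries held no difference between the sets and no other changed rows. These numbers therefore do not give the rates of detection or of false calls in the data. The sets were split at 5000000 recovered reads. Fold changes are given for genes past the limits in a comparison (MMP25 and ADAMTS19 in all, MMP27 without its p) and for TIMP1 and TIMP2, and values per library for these, the 5 highest genes of each stage, the collagenases and the gelatinases. Other genes named from the 54 proteolysis genes passed the limits, at most 6 per comparison. The genes, lists and tests were chosen with earlier results of these data known. Marker lists of dental epithelium, dental mesenchyme, odontoblast and bone, osteoclast, neutrophil and macrophage, endothelium, red cell, skeletal muscle, cartilage, and nerve and glia were summed per library. Alternatives were other pseudocounts (1 and 0.01) and filters, median-ratio scaling, limma-voom on the recovered reads, a replicate block, a fit of only the compared libraries, a term for the set, an adjusted p alone, and leaving out each library; median-ratio scaling without E60 library 1 was added after seeing the data. Gene order came from RefSeq (Sscrofa11.1), where 43 of the 45 symbols matched. How reads that match several of these related genes were counted is not given in the sources used here. Sums, ratios and figures were made in Python 3.11.15 (pandas 2.3.3, numpy 2.4.6, matplotlib 3.10.9, scipy 1.17.1).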

Additional observations from a re-analysis of the deposited data

How the results depend on the processing

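Depth limits the low genes most. In the shallow libraries between 30 and 36 of the 45 genes had more than 3 reads, and in the deep ones between 39 and 40. The cause of the changes below was not tested, except that a fit with fewer libraries or rows tests less.

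The counts in this section describe how the calls depend on the fit. The share of all rows past the limits is not given for most of these fits, so the counts are no result about these gene families. The number of the 39 genes past the limits from E40 to E50 was 5 (38.6% of all rows passed). It was 3 with no filter, 11 with median-ratio scaling, 12 by limma-voom, 14 in a fit of only the compared libraries, 0 with a term for the set of libraries, 14 with median-ratio scaling without E60 library 1, and between 0 and 15 when each library was left out. From E50 to E60 it was 0, and 1 with a pseudocount of 1 and 1 by limma-voom. It was 13 with median-ratio scaling without E60 library 1 (MMP27 included) and between 0 and 21 without each library (MMP27 included in the 21). From E40 to E60 it was 2, and 1 with a pseudocount of 0.01, 6 by limma-voom and 0 with only the compared libraries. It was 5 with a term for the set and 4 with median-ratio scaling without E60 library 1 (MMP27 included in each). Without each library it lay between 1 and 6 (MMP27 included in the 6). Within the shallow set it was 5, MMP27 included, and 3 with a pseudocount of 0.01, 1 with only the compared libraries and between 2 and 10 without each library. Within the deep set it was 0, and 1 with a pseudocount of 1, 2 by limma-voom, 3 with only the compared libraries and between 0 and 1 without each library; without E60 library 1 it has no value.

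With a term for the set, the log2 fold changes from E40 to E50 of ADAMTS3 (-0.21), ADAMTS12 (-0.2), TIMP1 (-0.93) and TIMP2 (-0.2) turned negative, as did those from E40 to E60 of TIMP1 (-0.49) and TIMP2 (-0.37), and TIMP1 from E50 to E60 became 0.45. From E40 to E60, TIMP1 lay between -0.49 and 2.01 and TIMP2 between -0.37 and 0.4 without each library (TIMP1 -0.1 without E40 library 1, TIMP2 -0.04 without E40 library 2), and TIMP1 was -0.08 with median-ratio scaling without E60 library 1. Within the shallow set TIMP1 lay between -2.04 and 1.07 without each library, the highest without E60 library 2, and TIMP2 0.07 with median-ratio scaling. The number of related genes past the limits lay, without each library, between 0 and 20 from E40 to E50, between 1 and 12 from E40 to E60 and between 2 and 10 within the shallow set. ADAMTS19 from E50 to E60 was 0.22 with median-ratio scaling and 0.62 when E60 library 1 was left out as well.

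The correlations of same-numbered deviations from the stage means lay between -0.515 and 0.109 and showed no pairing by replicate number. The E60 deviations include the difference between the sets, so these values cannot exclude a weak pairing. With a replicate block, 3 genes passed from E40 to E50 (log2 fold changes of 1.95 for ADAMTS12, -1.54 for ADAMTS19 and -5.61 for MMP21), 0 from E50 to E60, 1 from E40 to E60 (MMP25, 7.39), 2 within the shallow set (MMP25, 6.92, and ADAMTS19, -1.99) and 0 within the deep set.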
